A study of Mus musculus with 6 samples.

Results

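The acute phase serum proteins are plasma proteins whose genes the liver turns up during inflammation. The set followed here was named gene by gene: the serum amyloid A genes Saa1, Saa2 and Saa3, the pentraxins Apcs and Crp, the orosomucoids Orm1, Orm2 and Orm3, the lipocalin Lcn2 and haptoglobin, Hp. Probes were assigned to it when the accession given for the probe matched one of those symbols in RefSeq. All 10 genes were found, on 11 of the 56605 distinct probes of the array, and they make up 10 of the 27412 features tested. Each of the 11 probes was a single spot and was well above background on all 6 arrays, so the filter on dim probes removed none of them.

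RNA from 6 frozen mouse liver tumours, all labelled hepatocellular carcinoma (HCC) and C57BL/6, was measured on 1-colour arrays, 1 tumour per array. The groups, of 2 tumours each, were Epcam-derived HCC with CLC, Epcam-derived HCC without CLC and Albumin-derived HCC without CLC. Below they are called tumours with CLC, Epcam tumours without CLC and Albumin tumours. The Epcam tumours, with and without CLC, came from Epcam-AID mice that received tamoxifen and then 0.1% DDC in the diet for 8 months, a diet widely used to injure liver and bile ducts, and the Albumin tumours from Alb-AID mice at 90 weeks of age. Both lines carry AID in their name, the usual short name of activation-induced cytidine deaminase, a DNA-editing enzyme of B cells. The labels do not expand CLC, give no age for the Epcam-AID mice and no sex for any, and do not say how the alleles were built or whether tumours of a group came from separate animals. P-values therefore measure the spread between these tumours. Origin, tamoxifen, diet and time differ together between Epcam-AID and Alb-AID mice and cannot be told apart. No liver free of tumour is among the samples, so every value is relative to another tumour group.

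In the acute phase response, cytokines of the interleukin-6 family act on hepatocytes through STAT3, and interleukin-1 and TNF act through NF-kB and C/EBP factors. Hepatocytes then secrete more of the positive acute phase proteins and less of the negative ones, such as albumin and transthyretin. In mice the strongly induced proteins are the serum amyloids, including the pentraxin serum amyloid P encoded by Apcs, while Crp, the main pentraxin of the human response, is a minor reactant. Saa3 and Lcn2 are also made outside hepatocytes, Saa3 by macrophages and other stromal cells and Lcn2 by neutrophils and injured epithelium.

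The arrays lay on 2 slides, each scanned separately. Slide 1 held the tumour with CLC replicate 1 and both Albumin tumours, and slide 2 held the tumour with CLC replicate 2 and both Epcam tumours without CLC. Between the groups without CLC, slide therefore differs together with origin, tamoxifen, diet and time. Between 52.0% and 64.6% of probes were well above background on an array, 0 spots were saturated, and the number of arrays limits the precision. Levels are log2 signals relative to the 75th percentile of the array, so 0 is the signal that 75% of spots lie under. Levels of different probes are not comparable with each other, and only differences between tumours are read. Albumin itself (Alb) was well above background on all 6 arrays, at 9.87 and 9.41 with CLC, 9.81 and 9.52 in Epcam tumours without CLC, and 10.35 and 10.16 in Albumin tumours.

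The promoters of the genes with the widest differences are given first, since the cytokine signals above act there. RefSeq (GRCm38.p6) held a 300-base window, from 250 bases before to 50 bases after the start, for 8 of the 10 genes. Those of Apcs, Saa1, Saa2, Saa3, Orm2 and Orm3 are printed 5′ to 3′ on the gene's strand. Capitals mark matches, on either strand, to TTNNGNAA for C/EBP, TTCNNNGAA for STAT, CTGGGA for the interleukin-6 response element, or the NF-kB consensus.
Apcs (chr1:172895005-172895304, minus strand): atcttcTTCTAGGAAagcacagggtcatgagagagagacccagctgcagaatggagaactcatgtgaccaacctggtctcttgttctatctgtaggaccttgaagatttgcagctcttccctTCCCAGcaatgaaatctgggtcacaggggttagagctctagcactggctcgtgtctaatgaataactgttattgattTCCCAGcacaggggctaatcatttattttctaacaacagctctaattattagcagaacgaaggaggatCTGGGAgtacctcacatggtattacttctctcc
Saa1 (chr7:46742931-46743230, minus strand): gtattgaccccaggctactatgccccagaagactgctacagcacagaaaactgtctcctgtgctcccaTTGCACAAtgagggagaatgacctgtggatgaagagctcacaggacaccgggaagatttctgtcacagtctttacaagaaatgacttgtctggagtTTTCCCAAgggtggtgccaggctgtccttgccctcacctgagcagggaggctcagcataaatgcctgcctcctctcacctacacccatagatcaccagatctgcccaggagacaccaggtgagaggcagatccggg
Saa2 (chr7:46751583-46751882, plus strand): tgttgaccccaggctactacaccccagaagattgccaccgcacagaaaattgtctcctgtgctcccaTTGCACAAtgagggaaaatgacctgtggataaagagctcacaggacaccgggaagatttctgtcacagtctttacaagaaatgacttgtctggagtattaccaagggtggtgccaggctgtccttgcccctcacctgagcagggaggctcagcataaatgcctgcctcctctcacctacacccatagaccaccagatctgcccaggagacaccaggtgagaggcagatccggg
Saa3 (chr7:46715627-46715926, minus strand): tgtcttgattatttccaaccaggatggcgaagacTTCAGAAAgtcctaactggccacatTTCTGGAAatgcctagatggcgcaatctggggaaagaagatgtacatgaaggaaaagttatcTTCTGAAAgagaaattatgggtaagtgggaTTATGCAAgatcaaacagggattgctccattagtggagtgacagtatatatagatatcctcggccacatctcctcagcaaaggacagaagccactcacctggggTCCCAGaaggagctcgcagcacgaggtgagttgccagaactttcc
Orm2 (chr4:63362199-63362498, plus strand): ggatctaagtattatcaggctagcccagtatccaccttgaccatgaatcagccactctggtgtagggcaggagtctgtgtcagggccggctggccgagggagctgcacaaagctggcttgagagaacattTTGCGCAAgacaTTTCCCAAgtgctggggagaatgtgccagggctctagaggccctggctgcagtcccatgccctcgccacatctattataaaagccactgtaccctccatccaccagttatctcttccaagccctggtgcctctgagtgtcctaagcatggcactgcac
Orm3 (chr4:63355908-63356207, plus strand): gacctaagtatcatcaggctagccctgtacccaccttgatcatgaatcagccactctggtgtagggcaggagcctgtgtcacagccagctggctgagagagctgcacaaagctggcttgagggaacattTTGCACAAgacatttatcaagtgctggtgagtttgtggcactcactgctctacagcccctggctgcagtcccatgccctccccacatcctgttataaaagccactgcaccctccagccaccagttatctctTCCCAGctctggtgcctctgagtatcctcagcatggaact

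The windows of Saa1 and Saa2 were 95.3% identical over 301 aligned columns, those of Orm2 and Orm3 86.2% over 305, and those of the pentraxins Apcs and Crp 48.9% over 329. The C/EBP letters occurred in 7 of the 8 windows, Apcs being the exception, against 40.7% of the 32851 RefSeq windows of the same length. The STAT letters occurred in 1 of 8, that of Apcs, against 8.3% of all windows, and CTGGGA in 4 of 8 against 31.8%, with 3 matches in Apcs. The only CTGGGA match of Saa3, that of Orm3 and 1 of those in Apcs lay after the start. The NF-kB consensus occurred in 0 of 8, against 8.46%. No match overlapped another motif's match. These are letter matches in a short window and say nothing about binding.

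Apcs, which encodes serum amyloid P, was far lower in both Epcam groups than in Albumin tumours. Its level was 2.94 and 2.32 in tumours with CLC, 2.40 and 1.30 in Epcam tumours without CLC, and 6.22 and 6.51 in Albumin tumours. Every Epcam tumour, with or without CLC, lay below both Albumin tumours by more than 3 log2 units, while the Epcam groups overlapped each other. Between tumours without CLC, Apcs fell in the Epcam ones, by -4.51 ± 0.45 (log2, SE, n = 2 each), which is 22.8-fold lower (limma, adjusted p = 0.0417). By p it ranked 57 of 27412 features. It was the 1 member of 10 that passed, where 0.244% of all features passed. As lower, 1 of 10 members and 0.186% of features passed, and as higher, 0 of 10 and 0.0584%. Against Albumin tumours, those with CLC differed by -3.74 ± 0.45, which is 13.3-fold lower and just missed the threshold (adjusted p = 0.0746).

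The size of the Apcs difference changed little with processing, but its call did. Over 17 alternatives the difference between tumours without CLC ran from -5.06 to -3.89, and the call was kept in 6, with adjusted p from 0.0339 to 0.49. The groups without CLC lay on different slides, each shared with 1 tumour with CLC. With slide as a block, which rests on the tumours with CLC, the difference was -3.89 ± 0.78 (adjusted p = 0.49). Within slide 1, where a tumour with CLC stood beside both Albumin tumours, the difference was -3.43 ± 0.33 (adjusted p = 0.214 with 3 arrays). In these bulk tumours, fewer cells of a type and less RNA per cell cannot be told apart. Hepatocyte markers lay on the same side of 0 as Apcs with smaller differences. Their median difference between Epcam and Albumin tumours without CLC was -0.79, with 9 of 10 below 0, and -0.31 with quantile normalisation. Alb differed by -0.59 ± 0.29 there, or by -0.06 with quantile normalisation. The part of hepatocyte content in the Apcs difference was not tested.

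Crp, the other pentraxin, had no such pattern. Its level was -0.02 and 0.20 in tumours with CLC, -0.32 and -1.05 in Epcam tumours without CLC, and -0.70 and 0.51 in Albumin tumours. The Albumin pair spanned most of the whole range of 1.55 log2 units, and overlapped both other groups. Crp differed by 0.77 ± 0.49 with against without CLC (SE, n = 2 each), by -0.59 ± 0.49 between Epcam and Albumin tumours without CLC, and by 0.18 ± 0.49 with CLC against Albumin tumours. None passed (limma, adjusted p = 0.999, 0.53 and 0.882).

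**Figure D1:**
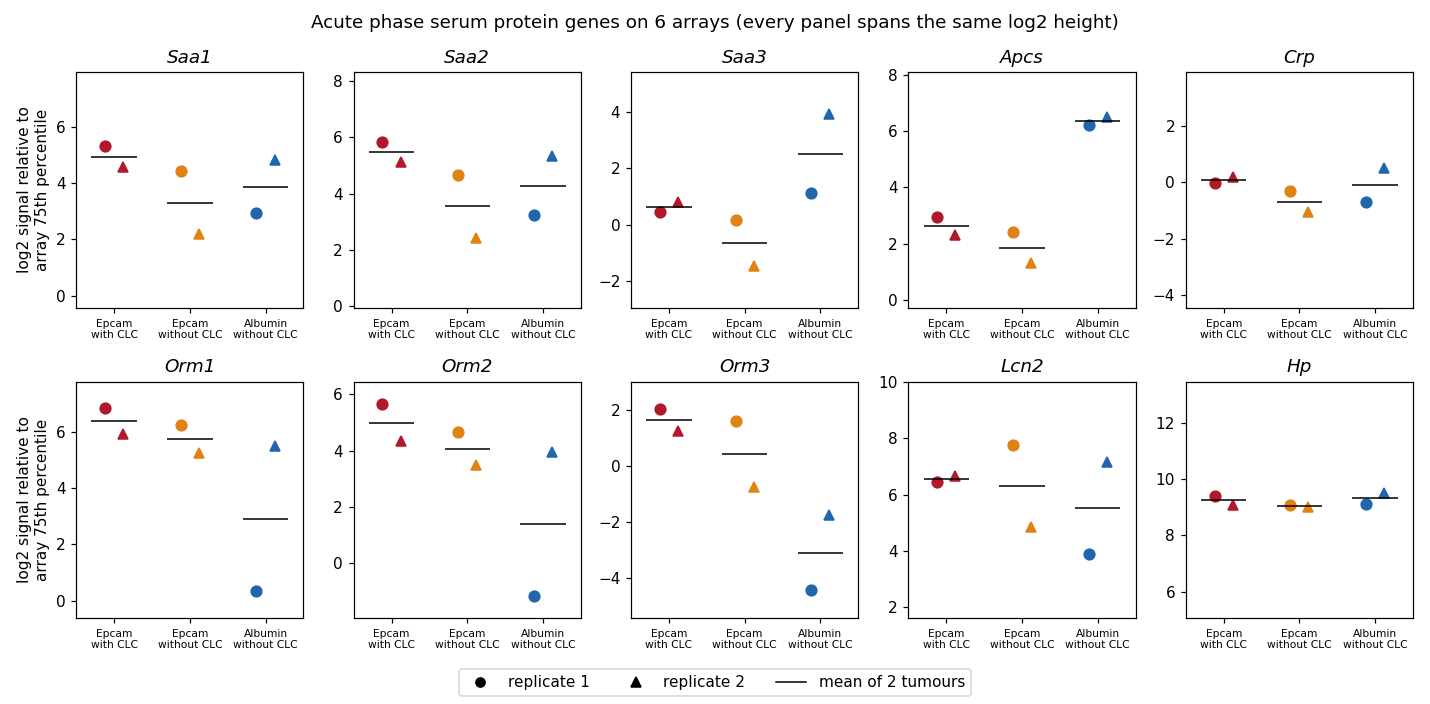
Level of each of the 10 genes (log2 signal relative to the 75th percentile of the array) in every tumour, by group, with the mean of the 2 tumours as a line. Apcs lies at 6.22 and 6.51 in Albumin tumours and between 1.30 and 2.94 elsewhere, and Orm1 and Orm2 have 1 low tumour, Albumin replicate 1.

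Saa1 and Saa2 encode the amyloid A proteins that hepatocytes release on high-density lipoprotein, and their levels went together. Saa1 was at 5.32 and 4.56 in tumours with CLC, 4.43 and 2.19 in Epcam tumours without CLC, and 2.94 and 4.82 in Albumin tumours. Saa2 was at 5.84 and 5.13 with CLC, 4.67 and 2.41 without CLC in Epcam tumours, and 3.24 and 5.32 in Albumin tumours. For both genes the highest tumour was that with CLC replicate 1 and the lowest was Epcam without CLC replicate 2. Both tumours with CLC exceeded both Epcam tumours without CLC, though narrowly for Saa1.

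With against without CLC, Saa1 differed by 1.63 ± 0.93 (log2, SE, n = 2 each) and Saa2 by 1.94 ± 0.97, folds of 3.10 and 3.83, and neither passed (limma, adjusted p = 0.999 for each). Most of that rested on 1 tumour: without Epcam without CLC replicate 2 the differences were 0.51 and 0.81, and without replicate 1 of that group 2.75 and 3.07. Between Epcam and Albumin tumours without CLC the differences were -0.57 ± 0.93 and -0.73 ± 0.97 (adjusted p = 0.761 and 0.700). Their sign turned, to 0.55 and 0.40, without Epcam replicate 2. With CLC against Albumin tumours they were 1.06 ± 0.93 and 1.20 ± 0.97 (adjusted p = 0.625 and 0.59), and 0.12 and 0.17 without Albumin replicate 1. The coding sequences of these neighbours are nearly identical and each symbol is an older synonym of the other, so which of the genes a probe reports is uncertain.

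Saa3, the amyloid also made by macrophages, was ordered otherwise. Its level was 0.45 and 0.79 in tumours with CLC, 0.18 and -1.46 in Epcam tumours without CLC, and 1.11 and 3.92 in Albumin tumours. The groups did not overlap in any of the comparisons, with Albumin tumours highest and Epcam tumours without CLC lowest. Saa3 differed by -3.15 ± 1.00 (log2, SE, n = 2 each) between Epcam and Albumin tumours without CLC, which is 8.88-fold lower and did not pass (limma, adjusted p = 0.188, unadjusted p = 0.0219). It differed by -1.89 ± 1.00 with CLC against Albumin tumours (adjusted p = 0.426) and by 1.26 ± 1.00 with against without CLC (adjusted p = 0.999). Albumin replicate 2 decided the size: without it the first of these was -1.75 and the difference with CLC -0.49, and without Epcam replicate 2 the third was 0.44.

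Macrophage and Kupffer cell markers, summed, had another order of groups than Saa3. Of 12 listed, 12 were tested, and their summed signal, in multiples of the 75th percentile, was 207 to 223 in tumours with CLC, 128 to 147 in Epcam tumours without CLC, and 58.3 to 108 in Albumin tumours, lowest in the group where Saa3 was highest. The sum is led by Csf1r, Spp1, Cd5l and Itgam, and Timd4 was not well above background on 2 arrays. Within the Albumin pair, where Saa3 was higher in replicate 2, the markers went both ways, with 7 of 12 higher in replicate 2 and 5 of 12 in replicate 1. As replicate 1 minus replicate 2, Spp1 differed by -3.21, Lyz2 by -2.81 and Cd68 by -2.15. Csf1r, Itgam, Adgre1 and Ccr2 differed by -0.47, -0.46, -0.21 and -0.20. The Kupffer cell genes Clec4f, Vsig4, Timd4, Marco and Cd5l differed by 2.49, 2.25, 2.15, 1.57 and 1.27. The part of macrophages in the Saa3 values was not tested.

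The orosomucoids, also called alpha-1-acid glycoproteins, are lipocalins of plasma that bind drugs and temper inflammation. Against Albumin tumours their differences had the opposite sign to that of Apcs. Orm1 was at 6.84 and 5.92 in tumours with CLC, 6.23 and 5.24 in Epcam tumours without CLC, and 0.33 and 5.50 in Albumin tumours. Orm2 was at 5.67 and 4.33 with CLC, 4.67 and 3.48 without CLC in Epcam tumours, and -1.15 and 3.97 in Albumin tumours. Orm3 was at 2.01 and 1.24 with CLC, 1.61 and -0.75 without CLC in Epcam tumours, and -4.41 and -1.76 in Albumin tumours. For all 3 genes the lowest tumour was Albumin replicate 1 and the highest was that with CLC replicate 1, ranges of 91.1-fold, 113-fold and 86.0-fold. Albumin replicate 2, in contrast, lay within the range of the Epcam tumours without CLC for Orm1 and Orm2, and below all Epcam tumours for Orm3.

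Against Albumin tumours, those with CLC differed by 3.46 ± 1.61 for Orm1, 3.59 ± 1.64 for Orm2 and 4.71 ± 1.11 for Orm3 (log2, SE, n = 2 each), folds of 11.03, 12.04 and 26.3. None passed (limma, adjusted p = 0.368, 0.359 and 0.155), though Orm3 ranked 29 of 27412 from the highest difference down. Epcam tumours without CLC differed from Albumin ones by 2.82 ± 1.61, 2.67 ± 1.64 and 3.52 ± 1.11 (adjusted p = 0.377, 0.405 and 0.184). The difference with against without CLC was 0.64 ± 1.61, 0.92 ± 1.64 and 1.20 ± 1.11 (adjusted p = 0.999 for each). Each SE is pooled over all 3 groups. For Orm1 and Orm2 the Albumin pair, not part of that comparison, had SDs of 3.65 and 3.62, against 0.66 to 0.95 in the Epcam groups.

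Albumin replicate 1 decided the Orm1 and Orm2 differences. Without it, Epcam tumours without CLC differed from the remaining Albumin tumour by 0.24 for Orm1 and 0.10 for Orm2, and without replicate 2 by 5.40 and 5.23. Tumours with CLC then differed by 0.88 and 1.03, or by 6.05 and 6.15. Orm3 kept a difference either way, 2.19 and 4.84 without CLC and 3.39 and 6.04 with CLC. Its signal in Albumin replicate 1 was the faintest of all 11 probes on any array, a processed intensity of 13.4, so the size of that gap is the least certain. The 3 genes lie side by side as near copies, and cross-hybridisation between their probes was not tested.

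**Figure D2:**
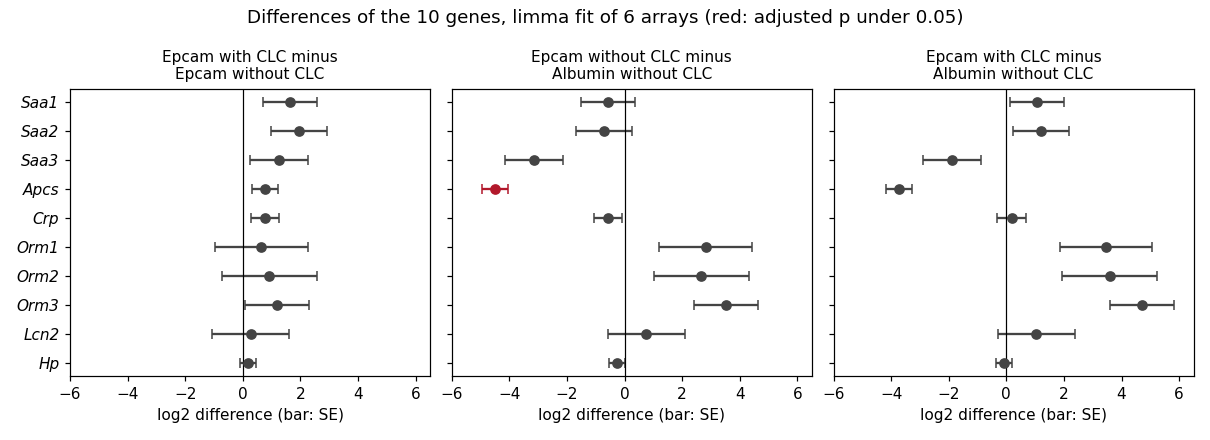
Log2 difference with its SE for each of the 10 genes in the 3 comparisons, from 1 limma fit of 6 arrays, with the call at an adjusted p under 0.05 in red. Apcs at -4.51 between tumours without CLC is the single red point, and the wide bars of Orm1, Orm2 and Lcn2 come with an SE from 1.34 to 1.64.

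Lcn2 encodes lipocalin 2, which starves bacteria of iron by binding their siderophores. On its brighter probe it was at 6.47 and 6.68 in tumours with CLC, 7.76 and 4.84 in Epcam tumours without CLC, and 3.89 and 7.18 in Albumin tumours. Both groups without CLC held 1 high and 1 low tumour, and the pair with CLC lay between them. Differences were 0.28 ± 1.34 with against without CLC, 0.76 ± 1.34 between Epcam and Albumin tumours without CLC, and 1.04 ± 1.34 with CLC against Albumin tumours (log2, SE, n = 2 each; limma, adjusted p = 0.999, 0.778 and 0.744). The second probe gave -0.05 ± 1.40, 1.49 ± 1.40 and 1.45 ± 1.40, so the probes disagreed on the sign of the first and agreed on the order of tumours inside each group. Leaving out single tumours turned the sign of all 3: to -1.19 without Epcam without CLC replicate 2, and to -0.88 and -0.61 without Albumin replicate 1.

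Neutrophil genes were measured beside Lcn2. Of 14 listed, 13 were on the array and 9 were tested, with Ltf, Ngp, Cxcr2 and Prtn3 too dim. The summed signal was 94.7 to 105 in tumours with CLC, 102 to 113 in Epcam tumours without CLC and 105 to 110.2 in Albumin tumours, nearly all of it from the Csf3r probe. S100a8, a calcium-binding alarm protein abundant in neutrophils, was at -0.84 and -0.60 in Albumin replicates 1 and 2, between which Lcn2 differed 9.79-fold. In the Epcam tumours without CLC S100a8 was at -0.66 and -1.26. Mmp8, a neutrophil collagenase, was at -4.90 in Albumin replicate 1, where it was not well above background, and at -2.59 in replicate 2, the same order as Lcn2. Of the 9 tested, though, only 4 were higher in Albumin replicate 2 and 5 were higher in replicate 1, with a median gap of 0. In Epcam tumours without CLC 7 were higher in replicate 1, as Lcn2 was, and 2 in replicate 2. Mpo, a neutrophil peroxidase, was at -2.17 and -4.36 with CLC and -3.96 and -4.99 in Epcam tumours without CLC, and was not well above background in Albumin tumours. The part of neutrophils in the Lcn2 values was not tested.

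Hp encodes haptoglobin, which captures free haemoglobin for uptake by macrophages. It was the steadiest of the 10, at 9.41 and 9.08 in tumours with CLC, 9.08 and 9.02 in Epcam tumours without CLC, and 9.12 and 9.52 in Albumin tumours. The whole range was 1.42-fold. Its processed intensities, from 158400 to 263500, were the highest of the 11 probes. Whether differences are compressed at such bright signals was not tested. Differences were 0.19 ± 0.28 with against without CLC, -0.27 ± 0.28 between Epcam and Albumin tumours without CLC and -0.08 ± 0.28 with CLC against Albumin tumours (log2, SE, n = 2 each; limma, adjusted p = 0.999, 0.617 and 0.919). The last 2 turned to 0.18 and 0.43 with quantile normalisation.

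Set side by side, the comparisons gave each its own picture. With against without CLC, all 10 members had a difference above 0, from 0.19 for Hp to 1.94 for Saa2, with a median of 0.85 where the median of all features was -0.06 and 43.1% of features lay above 0. In 4 of 10, Saa1, Saa2, Saa3 and Crp, both tumours with CLC exceeded both without, against 10.3% of all features, and in 0 of 10 both lay lower, against 19.8%. Without Epcam replicate 2 of the group without CLC, 9 of 10 lay above 0 and the median was 0.28, and without its replicate 1 the median was 1.63. Limma called 0 of 10 members and 0% of all features, and at an unadjusted p under 0.05 there were 0 of 10 members and 3.48% of features. Within slide 2, which holds 1 tumour with CLC, the differences were 1.25 for Saa1, 1.58 for Saa2, 1.43 for Saa3, 0.88 for Crp and 0.18 for Orm1.

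Between Epcam and Albumin tumours without CLC the members split. Differences were above 0 in 4 of 10, the orosomucoids and Lcn2, against 53.5% of all features, and the median was -0.42 against 0.06. That median had no stable sign: it was 0.12 with slide as a block, 0.34 without Albumin replicate 2 and 0.48 without Epcam replicate 2. Orm3 was higher without overlap (30.4% of features were), and Apcs, Saa3 and Hp were lower without overlap (24.8% of features were). At an unadjusted p under 0.05 there were 3 of 10, Apcs, Saa3 and Orm3, against 20% of features. With CLC against Albumin tumours 7 of 10 were above 0, against 49.3%, with a median of 1.05 against -0.01, and 5 of 10 with a median of -0.08 without Albumin replicate 1. The 3 orosomucoids were higher without overlap (23.8% of features were) and Apcs and Saa3 lower without overlap (27% of features were). Limma called 0 of 10 there, against 0.062% of features (0.0511% as lower and 0.0109% as higher), with 2 of 10 at an unadjusted p under 0.05, against 16%. These comparisons share tumours pairwise and are not separate results.

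**Figure D3:**
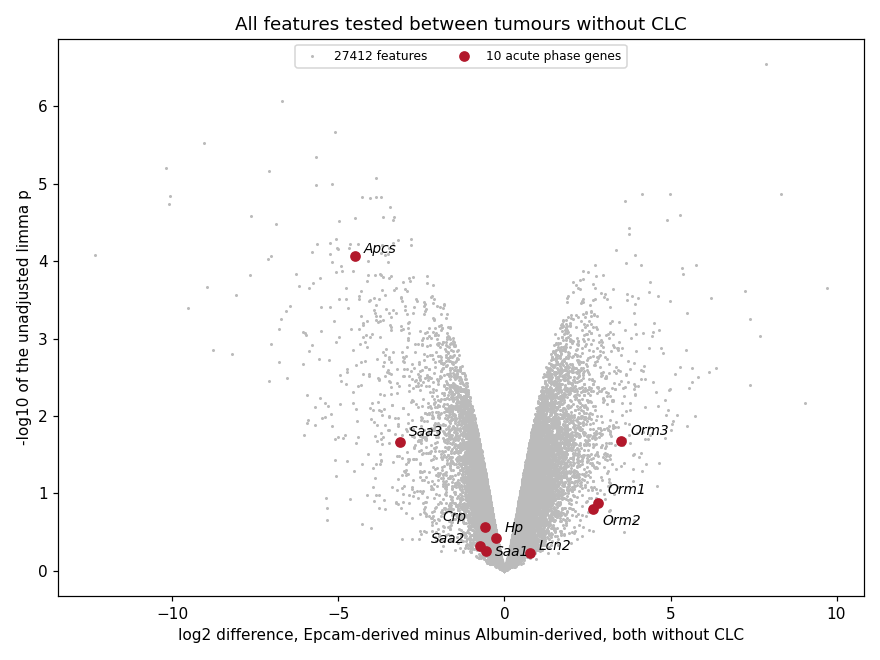
Log2 difference and −log10 of the unadjusted limma p for all 27412 features between Epcam and Albumin tumours without CLC, with the 10 genes in red. Apcs stands apart on the left at -4.51, Saa3 follows at -3.15, and the orosomucoids lie on the right between 2.67 and 3.52.

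The spread between tumours of a group was a large part of the picture. In the Albumin pair all 10 members were higher in replicate 2, by a median of 2.36 log2 units, where the median absolute difference of all features was 0.34. In the Epcam pair without CLC all 10 were higher in replicate 1, by a median of 1.41 against 0.38. In the pair with CLC 7 of 10 were higher in replicate 1, the others being Saa3, Crp and Lcn2. Their signed median there was 0.67, beside a median absolute difference of 0.39. Of all features, 50.4%, 52% and 48.3% were higher in replicate 1 of the Albumin pair, the Epcam pair without CLC and the pair with CLC. The split was not particular to the 10. Of 28 other positive acute phase genes, treated below, 20 were higher in Albumin replicate 2 and 26 in Epcam without CLC replicate 1. Nor was it confined to positive reactants. Of 12 negative acute phase genes, 10 were higher in Epcam without CLC replicate 1, but 10 in Albumin replicate 1. All 8 bile duct markers tested were higher in Albumin replicate 2, and 4 of 8 in Epcam without CLC replicate 1. For Orm1 and Orm2 the Albumin tumours lay 35.9-fold and 34.9-fold apart, a gap matched or exceeded by 0.0948% and 0.0985% of features, while Apcs, at 1.22-fold, had a gap that 55.7% of features matched or exceeded. In the Epcam pair without CLC the widest gaps were 7.59-fold for Lcn2, 5.10-fold for Orm3 and 4.81-fold for Saa2. Hp differed 1.05-fold there.

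**Figure D4:**
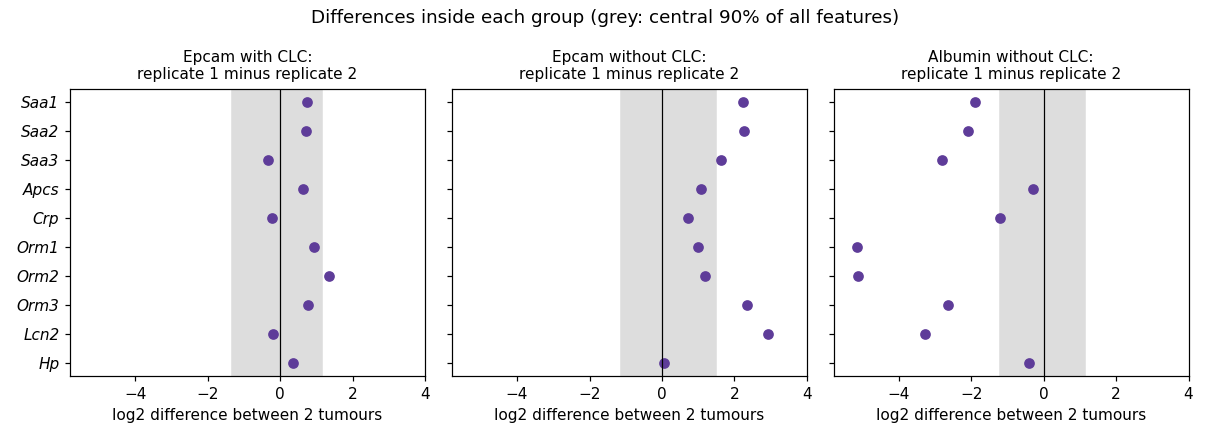
Log2 difference between the 2 tumours of each group, replicate 1 minus replicate 2, for the 10 genes, with the central 90% of all features in grey. All 10 points lie above 0 for Epcam tumours without CLC and all 10 lie below 0 for Albumin tumours, where Orm1 and Orm2 reach -5.16 and -5.12.

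Other positive acute phase genes, a list of 29 with 28 tested, were set beside the members. Limma called 0 of 28 in any comparison, with 0 at an unadjusted p under 0.05 by CLC, 9 between tumours without CLC and 8 with CLC against Albumin tumours. In the same order, limma called 0%, 0.244% and 0.062% of all features, and 3.48%, 20% and 16% were at an unadjusted p under 0.05. Of all features, 43.1%, 53.5% and 49.3% lay above 0. Between Epcam and Albumin tumours without CLC, 21 of 28 lay below 0 and the median was -0.71, or -1.50 without Epcam replicate 1 and -0.38 without Epcam replicate 2. The largest were Hamp, the iron hormone hepcidin, at -2.87 ± 1.63, the metallothionein Mt2 at -2.64 ± 1.31, the fibrinogen chain Fga at -2.26 ± 0.48 and the interleukin-1 receptor antagonist Il1rn at -2.16 ± 0.84 (log2, SE, n = 2 each). For tumours with CLC against Albumin tumours, 20 of 28 lay below 0 with a median of -0.69, led by Il1rn at -3.01 ± 0.84, the hyaluronan-binding Itih3 at -2.21 ± 0.42, Fga at -2.07 ± 0.48 and the fibrinogen chain Fgg at -1.71 ± 0.44. By CLC the median was 0.10 and 16 of 28 lay above 0, or -0.45 and 4 of 28 without replicate 2 of the Epcam tumours without CLC, with Hamp at 1.74 ± 1.63, the hepatocyte factor Fgl1 at 1.49 ± 1.77, Mt2 at 1.05 ± 1.31 and Il1rn at -0.86 ± 0.84.

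Fga shared the grouping of Apcs on a smaller scale. Its level was 3.31 and 3.19 in tumours with CLC, 3.70 and 2.42 in Epcam tumours without CLC, and 5.03 and 5.62 in Albumin tumours. Between tumours without CLC it did not pass (limma, adjusted p = 0.112). Of the alternatives, only the mean of its probes brought it under 0.05 (0.0492). It was at 0.288 with no filter on dim probes and at 0.751 with slide as a block. Lrg1, a secreted leucine-rich glycoprotein, instead split the Albumin pair as Orm1 did, at 6.68 and 5.77 with CLC, 7.15 and 4.28 without CLC in Epcam tumours, and 2.96 and 6.10 in Albumin tumours. Saa4, the constitutive serum amyloid, stayed between 1.60 and 2.25 on all 6 arrays.

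Negative acute phase genes, 12 listed and 12 tested, also lay below 0 in both comparisons with Albumin tumours. All 12 were below 0 there, with a median of -0.82 in each, and the median was 0 with against without CLC. Quantile normalisation brought those medians to -0.34 without CLC and -0.42 with CLC, with 11 of 12 below 0 in each. None passed, with 5 at an unadjusted p under 0.05 between tumours without CLC, 7 with CLC against Albumin tumours and 1 by CLC. The shares of all features at that p were 20%, 16% and 3.48%. In the 2 comparisons with Albumin tumours, 53.5% and 49.3% of all features lay above 0. Serpina6, which encodes corticosteroid-binding globulin, came nearest, at -4.07 ± 0.52 without CLC and -4.47 ± 0.52 with CLC against Albumin tumours (limma, adjusted p = 0.059 and 0.0746). It was followed without CLC by the growth factor Igf1 at -1.46 ± 0.70, transthyretin (Ttr) at -1.32 ± 0.34 and the lipoprotein Apoa1, 1.993-fold lower, and with CLC by the fetuin Fetub at -1.65 ± 0.41, Apoa1 at -1.18 ± 0.38 and Ttr at -1.11 ± 0.34. With against without CLC, Igf1 differed by 1.15 ± 0.70, Fetub by -1.08 ± 0.41, Serpina6 by -0.40 ± 0.52 and Ttr by 0.21 ± 0.34. Positive and negative reactants thus had medians on the same side of 0 against Albumin tumours, while Orm1, Orm2 and Orm3 lay on the other.

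**Figure D5:**
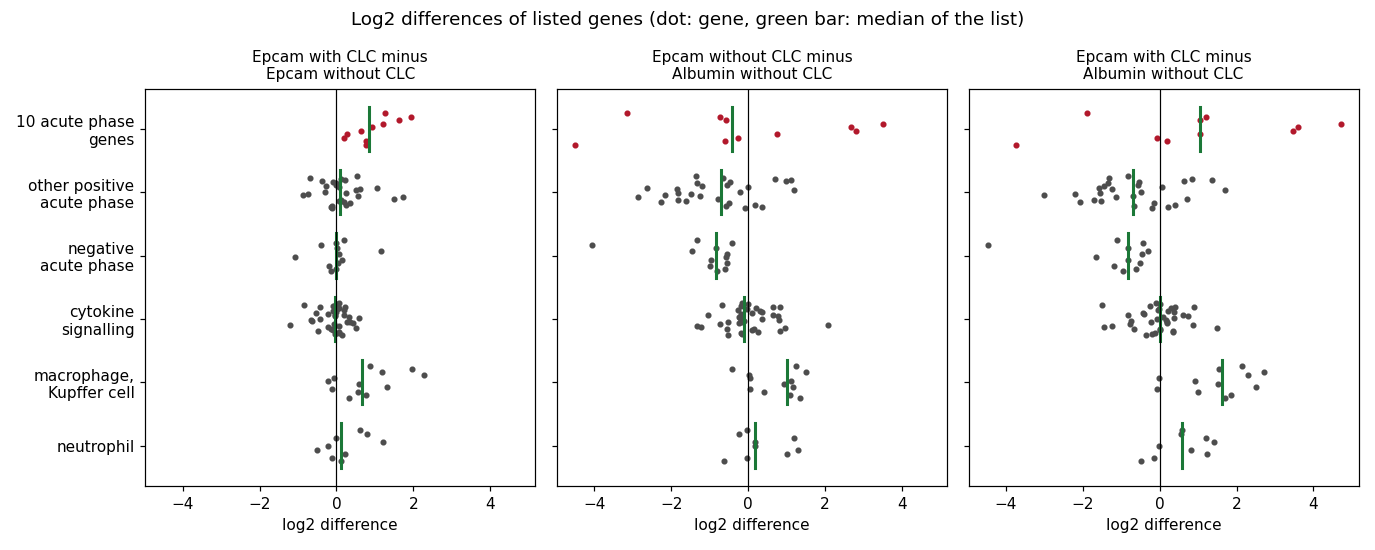
Log2 differences of the 10 genes (red) and of the listed genes around them (grey), with each list's median as a green bar, in the 3 comparisons. The medians of other positive (-0.71 and -0.69) and of negative acute phase genes (-0.82 and -0.82) lie left of 0 against Albumin tumours, and those of macrophage and Kupffer cell genes lie right of 0.

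Genes of the cytokine signal went both ways. Of 40 listed, 37 were tested and limma called 0 in each comparison, with 0, 5 and 4 at an unadjusted p under 0.05, and medians of -0.03, -0.10 and 0, by CLC, between tumours without CLC, and with CLC against Albumin tumours. The shares of all features at that p were 3.48%, 20% and 16%. Il6 itself was well above background on 2 of 6 arrays and was not tested. Stat3, the factor that relays interleukin-6, was at 3.50 and 3.20 with CLC, 3.42 and 3.43 in Epcam tumours without CLC, and 3.24 and 3.98 in Albumin tumours. Its target Socs3, which shuts the signal off, was at -0.02 and 1.84 with CLC, 0.83 and 1.84 without CLC in Epcam tumours, and -0.85 and 1.87 in Albumin tumours. Socs3 was thus higher in Albumin replicate 2 than in replicate 1, as the 10 members were, yet in Epcam tumours without CLC it was higher in replicate 2, where all 10 members were lower. Nfkb2, Relb, Pim1 and Bcl6 had the order of Socs3, higher in replicate 2 of both pairs. Osmr and Il1r1 had the order of the members in both pairs. These genes were picked after their values were seen, and the share of all features with either order is not given. Cebpd, a C/EBP factor induced in the response, also had the order of the members in both pairs. It was at 4.30 and 1.75 in Epcam tumours without CLC and 1.31 and 3.09 in Albumin tumours, with 2.51 and 2.60 in tumours with CLC. Of the 37 tested, 26 were higher in Albumin replicate 2 and 11 in replicate 1. In Epcam tumours without CLC 20 were higher in replicate 1 and 17 in replicate 2.

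Cebpb differed by 0.08 ± 0.32, 0.27 ± 0.32 and 0.35 ± 0.32 in the comparison by CLC, between tumours without CLC, and with CLC against Albumin tumours. The largest of the list between tumours without CLC were the interleukin-22 receptor Il22ra1 at 2.07 ± 0.76, the interleukin-1 receptor chains Il1rap at -1.32 ± 0.33 and Il1r1 at -1.23 ± 0.94, and Nfkbiz, a co-factor of NF-kB, at -1.03 ± 0.40 (log2, SE, n = 2 each). Tumours with CLC against Albumin tumours differed most in Tnf at -1.50 ± 0.49, Il1b at 1.49 ± 0.43, Il1r1 at -1.46 ± 0.94 and Il1rap at -1.24 ± 0.33. The comparison by CLC was led by Il22ra1 at -1.20 ± 0.76, Tnf at -0.84 ± 0.49, the cytokine Lif at -0.65 ± 0.50 and Junb, an early response factor, at -0.64 ± 0.60.

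Receptors and partners of the proteins were tested for 14 of 16 genes, again with 0 called and 0, 4 and 5 at an unadjusted p under 0.05, and with medians of 0.27, 0.86 and 1.20, in the same comparisons. Of all features, 3.48%, 20% and 16% were at that p. Cd163, the macrophage receptor for haptoglobin bound to haemoglobin, was at -2.88 and -2.07 with CLC, -3.52 and -3.47 in Epcam tumours without CLC, and -4.59 and -6.55 in Albumin tumours, where it was not well above background. It differed by 1.01 ± 0.68 with against without CLC, beside the immunoglobulin receptor Fcgr1, which also binds pentraxins, at 0.85 ± 0.43, the amyloid A receptor Fpr2 at 0.83 ± 0.68 and the lipoprotein receptor Scarb1 at -0.73 ± 0.53. Slc22a17, a lipocalin 2 receptor, differed by 1.65 ± 0.55 between tumours without CLC, where Fpr2 differed by 1.56 ± 0.68 and the complement chains C1qa and C1qc by 1.12 ± 0.46 and 1.09 ± 0.41. The values for tumours with CLC against Albumin tumours were 2.39 ± 0.68 for Fpr2, 1.85 ± 0.43 for Fcgr1, 1.61 ± 0.46 for C1qa and 1.34 ± 0.41 for C1qc.

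Markers of other cells in the tumours had these differences, with 0 called in any list. Here and in the lists above, genes were ranked only where they were well above background on at least 1 array of each group compared. Some ranked differences therefore rest partly on a dim array. Prom1, for example, was at -7.77 and not well above background in Epcam without CLC replicate 2. That leaves Mpo, Retnlg, Ctsg, Krt7 and Cd163, dim in both Albumin tumours, out of the comparisons with those tumours. Macrophage and Kupffer cell medians were 0.68, 1.01 and 1.62 in the comparisons as ordered above. They were led by Marco (2.28 ± 0.82), Timd4 (1.97 ± 0.81), Clec4f (1.32 ± 1.30) and Spp1 (1.19 ± 1.04) with against without CLC. Between tumours without CLC, Spp1 was at 1.51 ± 1.04, Adgre1 at 1.35 ± 0.30, Vsig4 at 1.26 ± 1.12 and Clec4f at 1.18 ± 1.30. In tumours with CLC against Albumin tumours, Spp1 was at 2.71 ± 1.04, Clec4f at 2.51 ± 1.30, Marco at 2.30 ± 0.82 and Vsig4 at 2.14 ± 1.12. Neutrophil medians were 0.12, 0.18 and 0.57. The largest so ranked were Mpo (1.21 ± 0.76), S100a8 (0.80 ± 0.34), S100a9 (0.62 ± 0.38) and Elane (-0.50 ± 0.26) by CLC, then Elane (1.31 ± 0.26), Camp (-0.62 ± 0.59), S100a8 (-0.24 ± 0.34) and Mmp8 (0.18 ± 0.74) between tumours without CLC. Set against Albumin tumours, those with CLC differed most, among genes so ranked, in Elane (0.81 ± 0.26), S100a9 (0.57 ± 0.38), S100a8 (0.56 ± 0.34) and Camp (-0.50 ± 0.59).

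Bile duct markers, 8 of 10 tested, had medians of 1.07, 0.10 (-0.03 with quantile normalisation) and 0.50, and hepatocyte markers, 10 of 10 tested, had medians of -0.03, -0.79 and -0.86. By CLC the largest duct differences were Krt19 (2.56 ± 0.50), Krt7 (1.63 ± 0.53), Epcam (1.62 ± 0.73) and Prom1 (1.59 ± 1.56), and the largest of hepatocytes Cyp2e1 (2.04 ± 0.35), Cps1 (-1.64 ± 0.33), Ttr and Apoa1 (-0.18 ± 0.38). Between tumours without CLC they were Prom1 (-2.20 ± 1.56), Epcam (-0.95 ± 0.73) and Sox9 (0.87 ± 0.57) for ducts, and Tat (-1.97 ± 0.36), Cyp2e1 (-1.62 ± 0.35), Ttr and F2 (-1.20 ± 0.32) for hepatocytes. With CLC against Albumin tumours they were Krt19 (2.75 ± 0.50), Cftr (0.97 ± 0.45), Epcam (0.68 ± 0.73) and Prom1 (-0.61 ± 1.56), and Tat (-1.95 ± 0.36), F2 (-1.25 ± 0.32), Cps1 (-1.23 ± 0.33) and Apoa1. The part of any of these cells in the differences of the 10 genes was not tested.

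Orm2, with a range of 6.82 log2 units, varied most of the 10 over the arrays. Its Pearson correlation over the 6 arrays was 0.997 with Orm1, 0.911 with Orm3, 0.796 with Lcn2, 0.635 with Saa1 and -0.559 with Apcs. Outside the set, the genes most like it were Mlxip at 0.992, Tekt2 at 0.991, Galnt3 at 0.990, Mybpc3 at 0.983 and Tbxas1 at 0.982, out of 9070 genes with a range of at least 1 log2 unit, of which 111 exceeded 0.9. With 6 arrays such values rest mainly on Albumin replicate 1, the lowest tumour for all 5 genes, where Tekt2 was at -6.79, Mybpc3 at -5.34 and Mlxip at -4.36. Whether these signals were well above background on that array is not reported here. Correlations resting on such low values of 1 tumour are uncertain. They are given as a description.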

How the data were processed

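Tumour RNA (0.1 µg per labelling) was measured on 6 Agilent 1-colour arrays. Per the file headers, spots were extracted with Agilent Feature Extraction 11.5.1.1, and the deposited processed signal is a background-subtracted, detrended intensity with no scaling between arrays. Yes or no marks per spot, such as well above background, are other columns of the deposited tables, and the array design is annotated on mm9. The authors' deposited value table is an intensity too, equal to the processed signal times 1 factor per array (1.64 to 2.42), with column medians from 55.0 to 79.9. What set the factors is unknown, and the table was used as an alternative. Precision is limited by 2 arrays per group.

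Control spots and spots marked as outliers did not enter. Signals were put on a log2 scale and the array's 75th percentile over the 59305 non-control spots was subtracted, and spots of a probe were averaged. Probes well above background in at least 0.5 of their spots on both arrays of a group were kept (34777, less 5 with an outlier spot). Unversioned accessions were matched to RefSeq (GRCm38.p6, for names and promoters only), naming 32994 of 56605 probes with 22911 symbols. The probe with the highest mean stood for a gene, leaving 27412 features, 15869 with a symbol. All arrays entered 1 limma 3.58.1 fit (lmFit, eBayes; R 4.3.3, data.table version 1.17.8, jsonlite 2.0.0) with 3 residual and 2.62 prior degrees of freedom. P-values are two-sided and Benjamini-Hochberg adjusted over all features, threshold 0.05. The fit was tested on simulated data. Promoters were searched with Biopython 1.88. Named were all 10 members, and per list and comparison the 4 genes with the largest difference. Those 4 had to be well above background on at least 1 array of each group compared. The signalling and marker genes Stat3, Socs3, Cebpb, Cebpd, Il6, Alb, S100a8 and S100a9 were named too. Some genes that the rule names are not reported here. Fga, Lrg1, Saa4, Cd163, Mmp8, Mpo and Prom1 were given by array after their values were seen. So were the macrophage genes within the Albumin pair and the order of Osmr, Il1r1, Nfkb2, Relb, Pim1 and Bcl6. The members and lists were chosen with earlier results of these data known. Alternatives changed the background correction, scaling, filter, probe rule, samples, slide, replicate number and variance model, 1 at a time, except that the background correction changed together with the scaling and the signal column. The mean signal was absent, so normexp (offset 50) used the median signal, followed by quantile normalisation.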

Additional observations from a re-analysis of the deposited data

How the results depend on the processing

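Of the log2 differences of single members under alternatives, 499 kept direction and side of the threshold, 11 kept direction and lost the call, all of Apcs, and 20 changed sign. No member was called in the comparison by CLC or with CLC against Albumin tumours under any of 18 alternatives, where limma called 0 features by CLC throughout. Between tumours without CLC, the called member, Apcs, numbered 0 rather than 1 with normexp and quantile (adjusted p = 0.0525), no filter on dim probes (0.138), only the compared groups in the fit (0.077), slide as a block (0.49), the replicate block (0.0668), and without any single array (0 to 0; 0.077 to 0.181). Without either tumour with CLC the difference stayed at -4.51, in a fit with fewer arrays. The cause of the other losses was not tested.

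Features called between tumours without CLC were 67 in the reported fit, 103 with quantile normalisation, 1 with no filter, 32 with a filter on all 6 arrays, 110 with the mean of all probes, 16 with only the compared groups, 0 with slide as a block, 11 with the replicate block, and 0 to 16 without 1 array. With CLC against Albumin tumours they were 17, with 39 after normexp and quantile, 66 after quantile normalisation, 1 with no filter, 39 with trend, and 0 with only the compared groups, slide as a block, within slide 1, the replicate block or without any 1 array (0 to 0). The replicate numbers share only a number: same-numbered tumours' deviations correlated at 0.232, 0.0619 and -0.159 between the groups, so the block was not used as the main fit.

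Some differences changed sign. Hp turned to 0.18 and 0.34 with normexp and quantile and to 0.18 and 0.43 with quantile normalisation, between tumours without CLC and with CLC against Albumin tumours. With slide as a block Hp was 0.06 and 0.09, within slide 1 it was 0.09, and Saa1 was 0.18 between tumours without CLC with slide as a block. Without 1 array, differences between tumours without CLC ran from -1.70 to 0.55 for Saa1, -1.87 to 0.40 for Saa2, -1.19 to 0.01 for Crp and -0.88 to 2.41 for Lcn2. With CLC against Albumin tumours they ran from -0.42 to 0.79 for Crp, -0.61 to 2.69 for Lcn2 and -0.28 to 0.12 for Hp, and by CLC from -1.19 to 1.74 for Lcn2. The cause was not tested.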
